A study of Mus musculus with 464 samples.

Results

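The 4 FGF receptor genes Fgfr1, Fgfr2, Fgfr3 and Fgfr4 and 6 genes of the ERK feedback response, Spry1, Spry2, Spry4, Dusp6, Etv4 and Etv5, were followed in single cells differentiated from mouse embryonic stem cells. The genes were chosen by name, and all 10 are among the 21973 genes of the deposited table. R1 embryonic stem cells (medium with LIF at 1000 U/ml and serum replacement at 15%) were kept as hanging drops for 48 hours, and the resulting embryoid bodies were held for 4 days in retinoic acid at a labelled dose of 0.5 mM, an agent that drives such cells toward neural fates. All samples carry this treatment and are labelled as 1 cell each, with no untreated, earlier or separate culture among them, so the cells form 1 sample and no p-value is given. Capture was on a Fluidigm C1 chip, and full-length cDNA was sequenced without molecular identifiers.

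Fibroblast growth factors bind receptor tyrosine kinases on the cell surface together with heparan sulfate or a Klotho protein, and the activated receptors signal through the adaptor FRS2 and the RAS, RAF and MEK proteins to the kinase ERK. ERK activity raises transcription of its own brakes, among them the Sprouty proteins, which act upstream of ERK, and DUSP6, a phosphatase that removes the activating phosphates from ERK, and of the ETS transcription factors ETV4 and ETV5. In the early mouse embryo FGF signalling through FGFR1 and FGFR2 directs cells of the inner cell mass to primitive endoderm, and in the neural tube FGF receptors are carried by progenitor cells.

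Expression is given in TPM, a share of a cell's transcripts that is corrected for gene length, so levels of different genes can be set side by side. Detection of a gene in a cell means a value of at least 1 TPM. TPM keeps no sequencing depth, and the number of genes above 0 was the only measure of it. The table has column names of 2 sets, and 55 columns of set 1 had a near copy in set 2, with a correlation of 0.95 to 0.99 of log2(TPM + 1) across genes, against at most 0.92 between any other columns. These were taken to be repeats of the same cells and counted once, which left the distinct cells described here among the columns that passed a minimum of 2000 genes and a maximum mitochondrial share of 20%. A cell had 2059 to 10256 genes above 0, with a median of 6740.

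Cells were sorted into states by how many genes of 3 marker lists, each of 10 genes, were detected. The endoderm state (at least 5 endoderm markers such as Gata4, Gata6 and Sox17, and fewer than 5 progenitor markers) held 62 cells (15.4% of the distinct cells). A mixed state with at least 5 of each held 42 cells (10.4%), and these had a median of 8071.5 genes, against 6270.5 in the endoderm state and 6658.5 in the progenitor state. Whether a mixed-state cell is 1 cell with both programmes or 2 cells in 1 capture site cannot be told apart here. The neuron state (fewer than 5 endoderm and at least 7 neuron markers such as Nefl, Stmn2 and Mapt) held 120 cells (29.8%), of which 86 also had at least 5 progenitor markers. The progenitor state (at least 5 progenitor markers such as Pax6, Sox2 and Hes5, and too few of the others) held 41.2% of the distinct cells, and 13 cells stayed unclassed. None of the 10 genes is in these lists. Markers of other lineages had low medians in all 4 states. The summed level of 6 mesoderm and mesenchyme markers had a median of 0 TPM in each state, with T and Tbx6 detected in no cell. Of these 6, Twist1 was detected in at least 10% of endoderm-state cells, and the others in none of them. The same median of 0 TPM held for 6 markers each of surface ectoderm, neural crest, and endothelium and blood. Such a median leaves room for single cells with these markers. Of the endothelium and blood markers, 1 was detected in at least 10% of cells in the endoderm state and 1 in the mixed state. No surface ectoderm marker reached that share in any state. Of the 6 neural crest markers, 3 were detected in at least 10% of neuron-state cells and 1 in each of the other states. Their sum reached 163.2 TPM in the neuron state and 266.3 TPM in the progenitor state. The 6 pluripotency markers had a median sum of 17.9 TPM in the endoderm state, 4.12 TPM in the mixed state, and 0 TPM in the neuron and progenitor states. Nanog, Esrrb and Tdgf1 were detected in no endoderm-state or mixed-state cell, and Pou5f1 in no mixed-state cell. Pou5f1, Tbx3 and Zfp42 were each detected in endoderm-state cells, and 2 of the 6 reached 10% of these cells. In the mixed state 1 of the 6 reached 10%.

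The sequences before the annotated start of Fgfr4, which was called higher in endoderm-state cells, and of Fgfr2, Fgfr3 and Dusp6, which were called lower there, are shown because these 4 genes are among the 5 called between these states; Fgfr1 is the fifth. Of the 10 genes, 7 have an entry in RefSeq's promoter table for GRCm38.p6, to which the authors' mm10 corresponds. Each line gives the 250 bases before the first start listed, 5′ to 3′ on the gene's strand. Capitals mark CCGGAA, a core of ETS factor sites, and GGGCGG, a GC box, searched on both strands. These motifs can share bases at their ends, and each was scored on its own.
Fgfr4: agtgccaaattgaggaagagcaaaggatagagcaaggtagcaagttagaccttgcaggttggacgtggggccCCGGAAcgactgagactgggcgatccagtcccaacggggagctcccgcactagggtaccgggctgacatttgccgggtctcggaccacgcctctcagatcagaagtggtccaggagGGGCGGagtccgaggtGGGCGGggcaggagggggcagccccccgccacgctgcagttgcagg
Fgfr2: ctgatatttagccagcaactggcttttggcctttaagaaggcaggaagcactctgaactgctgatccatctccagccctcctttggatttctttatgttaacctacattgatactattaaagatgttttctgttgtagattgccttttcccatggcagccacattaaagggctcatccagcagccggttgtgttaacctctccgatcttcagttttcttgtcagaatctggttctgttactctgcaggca
Fgfr3: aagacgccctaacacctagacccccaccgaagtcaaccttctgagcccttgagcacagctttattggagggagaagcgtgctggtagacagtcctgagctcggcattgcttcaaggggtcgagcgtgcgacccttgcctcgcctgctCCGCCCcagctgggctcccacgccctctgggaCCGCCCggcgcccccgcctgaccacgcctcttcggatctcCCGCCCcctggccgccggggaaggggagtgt
Dusp6: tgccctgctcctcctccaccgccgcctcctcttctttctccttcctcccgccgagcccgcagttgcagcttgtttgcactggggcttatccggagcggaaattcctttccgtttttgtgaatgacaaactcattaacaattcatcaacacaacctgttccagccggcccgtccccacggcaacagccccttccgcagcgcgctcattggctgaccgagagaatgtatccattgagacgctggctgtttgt
The windows lie at chr13:55152568-55152817 on the plus strand for Fgfr4, chr7:130266809-130267058 on the minus strand for Fgfr2, chr5:33721474-33721723 on the plus strand for Fgfr3, which has 2 listed starts, and chr10:99262981-99263230 on the plus strand for Dusp6. The Fgfr4 window held 1 ETS core and 2 GC boxes, the Fgfr3 window 3 GC boxes, and the windows of Fgfr2 and Dusp6 neither motif. Of all 32851 windows of this length in the table, 12.03% held the ETS core and 32.7% the GC box. The Fgfr2 window had a G and C content of 44% and 2 CG steps, fewer than the 15, 19 and 16 CG steps of the Fgfr4, Fgfr3 and Dusp6 windows, and the median window had 6. A match of letters is a description and not a bound site.

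Over all distinct cells, 7 of the 10 genes reached a detected share of 10%, a share that 50.6% of all genes in the table reached. Dusp6 led, detected in 62.03% of cells (exact 95% interval 57.1 to 66.8) with 39.7 TPM on average and 320.6 TPM at most. Fgfr1 (chromosome 8, 25518759 to 25575718 in GRCm38.p6, as for the positions that follow) was found in 57.6% (52.6 to 62.4) and Fgfr2 (chromosome 7, 130162451 to 130266808) in 54.8% (49.8 to 59.8), so these receptors did not differ beyond counting error in how often they were found. Fgfr2 had the highest mean of the receptors at 15.8 TPM, followed by Fgfr1 at 8.78 TPM, Fgfr3 at 6.76 TPM and Fgfr4 at 1.53 TPM. Fgfr3 (chromosome 5, 33721724 to 33737068) was found in 40.7% (35.9 to 45.7) and Fgfr4 (chromosome 13, 55152818 to 55168759) in 12.4% (9.35 to 16.03). Intervals cover counting error within this 1 culture only.

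The feedback genes were found at very different rates in the same cells. Spry1 (chromosome 3, 37639947 to 37644599) was found in 21.1% of cells (17.2 to 25.4) and Spry2 (chromosome 14, 105891947 to 105896819) in 11.2% (8.26 to 14.7). Etv5 (chromosome 16, 22381313 to 22439570) was found in 15 cells (3.72%, 2.10 to 6.06), Spry4 in 9 (2.23%, 1.03 to 4.20), and Etv4 (chromosome 11, 101769747 to 101785310) in 3 (0.744%, 0.154 to 2.16). Dusp6 (chromosome 10, 99263231 to 99267489) was thus found in 250 cells and each of these 3 genes in at most 15, although all 4 are known targets of ERK signalling. The 15 cells with Etv5 ranged from 1.66 to 35.65 TPM, the 9 with Spry4 from 1.21 to 7.64 TPM, and the 3 with Etv4 from 9.41 to 42.82 TPM. Dusp6 was also detected in 12 of the 15 cells with Etv5 and in 8 of the 9 with Spry4, and Dusp6 was itself found in 62.03% of all cells.

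**Figure D1:**
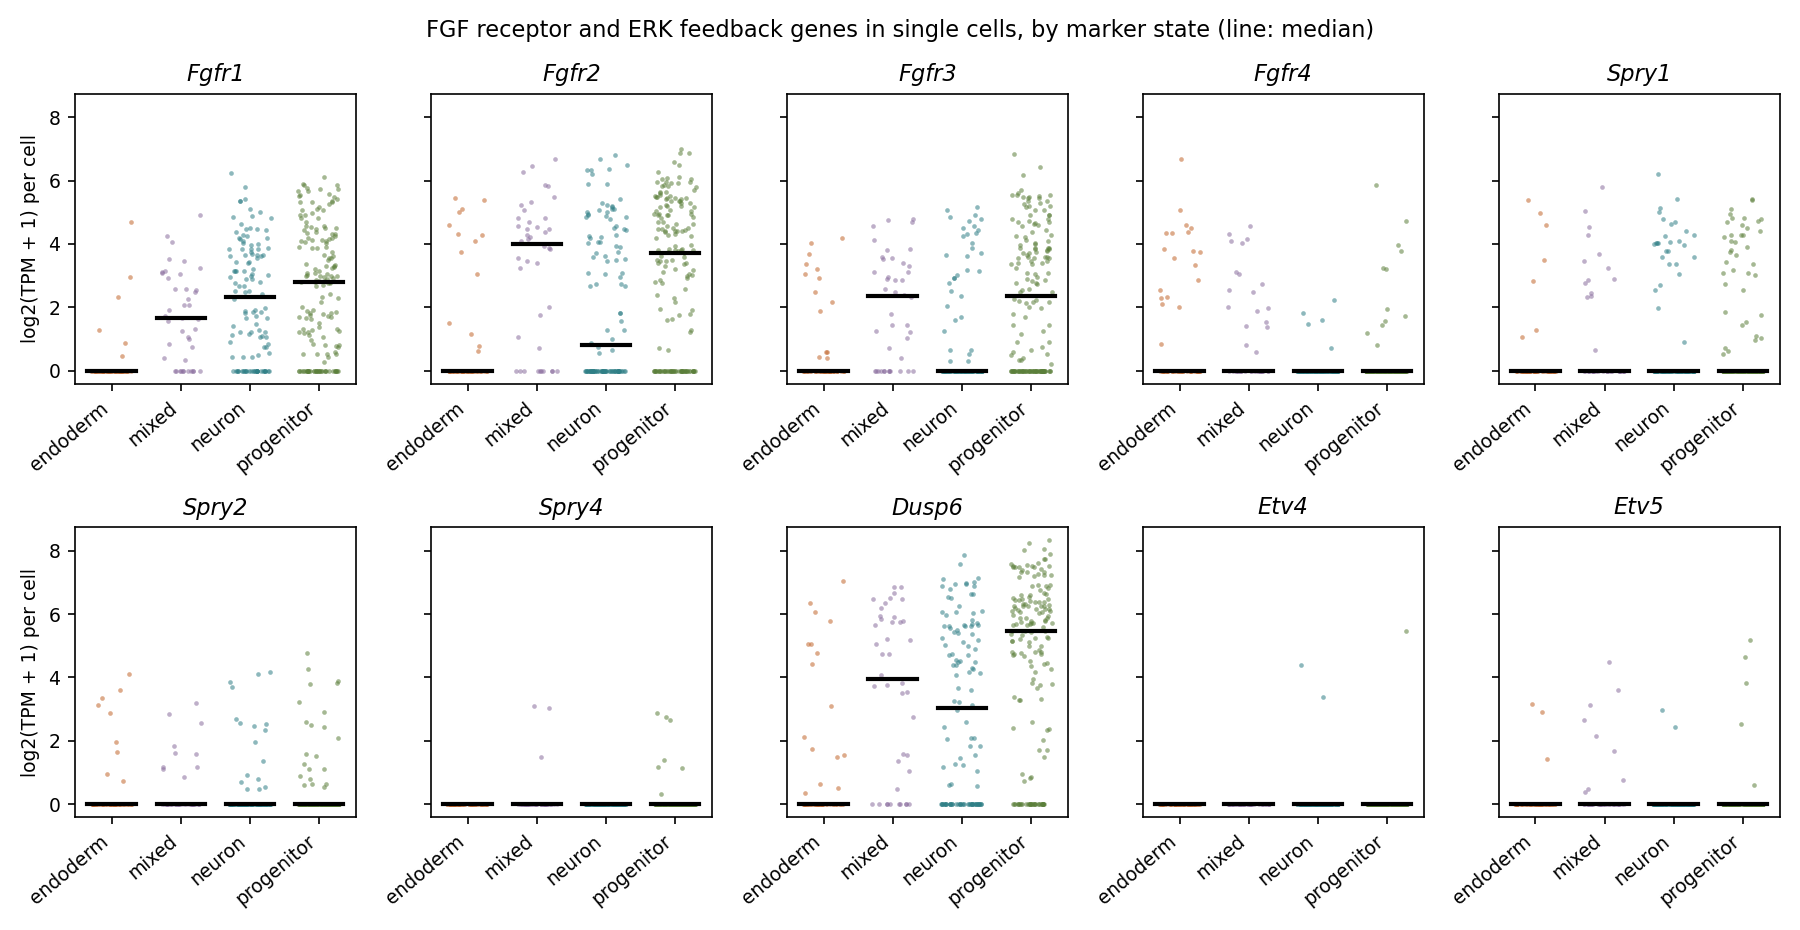
Each point is 1 cell, with log2(TPM + 1) of the gene on the y axis and the marker state on the x axis (endoderm 62, mixed 42 and neuron 120 cells, and the progenitor state); black lines are medians. Dusp6 reached a median of 43.3 TPM in progenitor-state cells, and its median was 0 TPM in endoderm-state cells; Etv4 and Spry4 were detected in 3 and 9 cells in all, and Etv5 in 15, of which 6 are mixed-state cells.

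The repeat columns show how far these values repeat for a cell. Of the 55 pairs, detection of Dusp6 differed between the repeats in 2, of Fgfr1 and Fgfr2 in 3 each, of Fgfr3 in 4, of Spry1 in 1 and of Fgfr4 in 0. Spry2 differed in 5 pairs and was found in both repeats in 5, so its presence in a cell was as often unrepeated as repeated. Spry4 was found in 1 repeat of 1 pair and in no pair in both repeats, Etv5 in both repeats of 2 pairs, and Etv4 in none. Where both repeats detected the gene, their TPM differed by a median factor of 1.27 for Dusp6, 1.28 for Fgfr2, 1.22 for Fgfr3, 1.51 for Fgfr1, 1.73 for Spry1 and 1.92 for Spry2. The labels do not say at which step the repeats part. With the pairs taken as the same cells, this spread covers only the steps done apart for each repeat and holds no difference between cells. A loss in a step that both repeats share would not show in it.

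**Figure D2:**
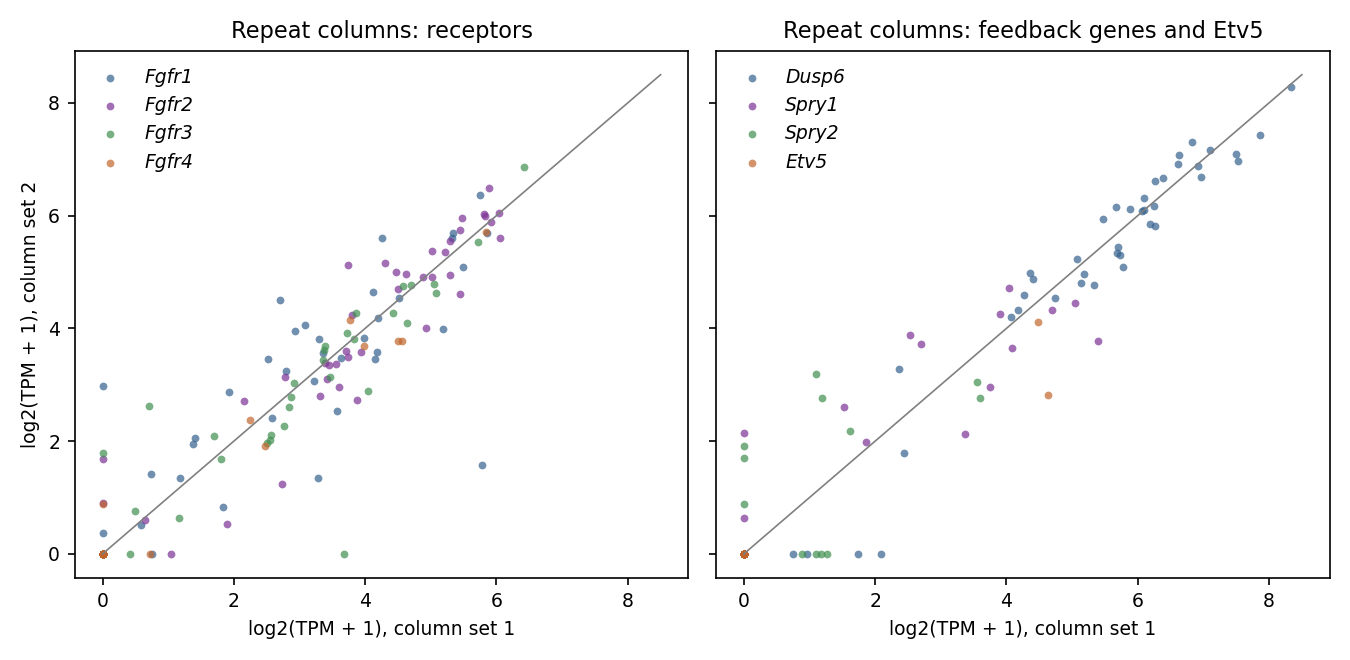
Values of log2(TPM + 1) of the same cells in column set 1 (x axis) and set 2 (y axis), 55 pairs per gene, receptors on the left and Dusp6, Spry1, Spry2 and Etv5 on the right; the grey line marks equal values. Dusp6 points lie close to the line, and Spry2 has 5 pairs with the gene detected in 1 repeat only.

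Receptors differed between endoderm-state and progenitor-state cells. Fgfr1, Fgfr2 and Fgfr3 were lower in the endoderm state than in the progenitor state and Fgfr4 was higher, with a median of 0 TPM for all 4 in the endoderm state. A gene was called higher or lower when its mean TPM differed at least 2-fold, it was detected in at least 10 of the cells compared, and the 95% intervals of its detected shares did not overlap, a rule of size and not a test. Of the 10 genes, 1 was called higher and 4 lower in endoderm-state cells, and 3 were detected in too few cells to be called; of the 12358 genes that could be called, 12.3% were called higher and 15.4% lower. Since the 10 genes were chosen with such contrasts known, the counts describe them and are no evidence about the group.

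Fgfr1 was detected in 4 of 62 endoderm-state cells (6.45%, 1.79 to 15.7) and in 70.5% of progenitor-state cells (62.9 to 77.3). Its median was 0 TPM (0 to 24.8 over cells) in the endoderm state and 5.94 TPM (0 to 67.6) in the progenitor state. The means of 0.617 and 12.1 TPM were 19.6-fold apart, lower in the endoderm state; without the highest cell of each state they were 0.220 and 11.8 TPM, so 1 cell carries much of the endoderm-state mean. Within column set 1, Fgfr1 was in 5.88% of endoderm-state and 73.6% of progenitor-state cells, and within set 2 in 5.56% and 66.3%.

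Fgfr2, whose product FGFR2 is the other receptor known to act in the primitive endoderm decision, was detected in 12 of 62 endoderm-state cells (19.4%, 10.4 to 31.4) and in 69.9% of progenitor-state cells (62.3 to 76.7). Its mean was 4.02 TPM in the endoderm state and 21.03 TPM in the progenitor state, a 5.23-fold lower level. The 12 endoderm-state cells that had it showed a median of 18.7 TPM, close to the 23.1 TPM of the progenitor-state cells that had it, so the states differed in how many cells carried Fgfr2 more than in its level where present. Fgfr3, which radial glia and astrocytes of the nervous system are known to express, was detected in 16.1% (8.02 to 27.7) and 58.4% (50.5 to 66.02), with means of 1.42 and 11.7 TPM in the endoderm and progenitor states. Its share in the endoderm state was 26.5% in column set 1 and 8.33% in set 2, and both lay below the 61.3% and 54.3% of the progenitor state.

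Fgfr4 ran the other way. It was detected in 18 of 62 endoderm-state cells (29.03%, 18.2 to 41.9) and in 11 progenitor-state cells (6.63%, 3.35 to 11.5). The median was 0 TPM in both states, with a range of 0 to 101.5 TPM in the endoderm state and 0 to 56.6 TPM in the progenitor state. The means of 5.19 and 0.825 TPM put it 6.30-fold higher in the endoderm state; without the highest cell of each state they were 3.61 and 0.486 TPM. Fgfr4 was found in 35.3% of endoderm-state cells against 8.49% of progenitor-state cells in column set 1, and in 19.4% against 5.43% in set 2, where the intervals overlapped and the gene was not called. It was also not called when a difference of mean log2(TPM + 1) of at least 1 was required, at 0.88, or when detection meant being among the 4000 highest genes of a cell.

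Each endoderm-state cell carried few receptors. None of the 4 was detected in 26 of 62 endoderm-state cells (41.9%, 29.5 to 55.2), against 12 progenitor-state cells (7.23%, 3.79 to 12.3). At least 3 were detected in 0 of 62 endoderm-state cells, which allows a share of up to 5.78%, and in 62 progenitor-state cells. Summed over the 4 genes, the mean was 11.2 TPM in the endoderm state, 34.5 TPM in the mixed state, 25.7 TPM in the neuron state and 45.7 TPM in the progenitor state. Fgfr4 made up 46.2% of this mean sum in the endoderm state and 1.80% in the progenitor state, while Fgfr1 made up 5.49% and 26.5%. Fgfr4 was in 18 endoderm-state cells and Fgfr1 in 4, with no cell in common, numbers too small to read a pattern from.

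**Figure D3:**
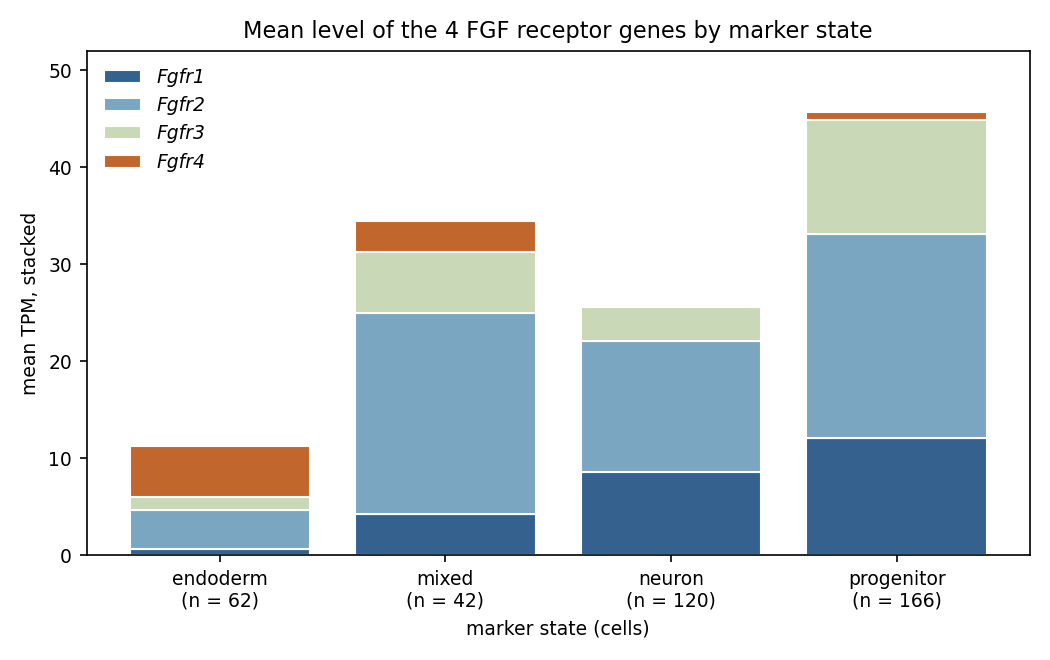
Stacked bars give the mean TPM (y axis) of Fgfr1, Fgfr2, Fgfr3 and Fgfr4 over the cells of each marker state (x axis). The sum is 11.2 TPM in the endoderm state, of which 46.2% is Fgfr4, and 45.7 TPM in the progenitor state, of which 1.80% is Fgfr4. The endoderm-state Fgfr4 mean of 5.19 TPM is 3.61 TPM without 1 cell at 101.5 TPM. No error is drawn because cells of 1 culture are not replicates.

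Of the feedback genes, Dusp6 was called lower in the endoderm state and the Sprouty genes were not called. Dusp6 was detected in 13 of 62 endoderm-state cells (20.97%, 11.7 to 33.2) and in 77.7% of progenitor-state cells (70.6 to 83.8). It ranged from 0 to 130.2 TPM with a median of 0 in the endoderm state, and from 0 to 320.6 TPM with a median of 43.3 TPM in the progenitor state. The means of 7.43 and 62.6 TPM were 8.42-fold apart, and the shares within the sets were 20.6% and 19.4% in the endoderm state against 74.5% and 80.4% in the progenitor state. Spry1 was detected in 11.3% (4.66 to 21.9) of endoderm-state and 21.7% (15.7 to 28.7) of progenitor-state cells, and Spry2 in 11.3% (4.66 to 21.9) and 9.64% (5.61 to 15.2), with overlapping intervals for each. Etv5 was detected in 3 of 62 endoderm-state and 4 progenitor-state cells, Spry4 in 0 and 6, and Etv4 in 0 and 1. The calls of Fgfr1, Fgfr2, Fgfr3 and Dusp6 between these states held under all 13 alternatives computed, including cells limited to 5000 to 8000 genes above 0.

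**Figure D4:**
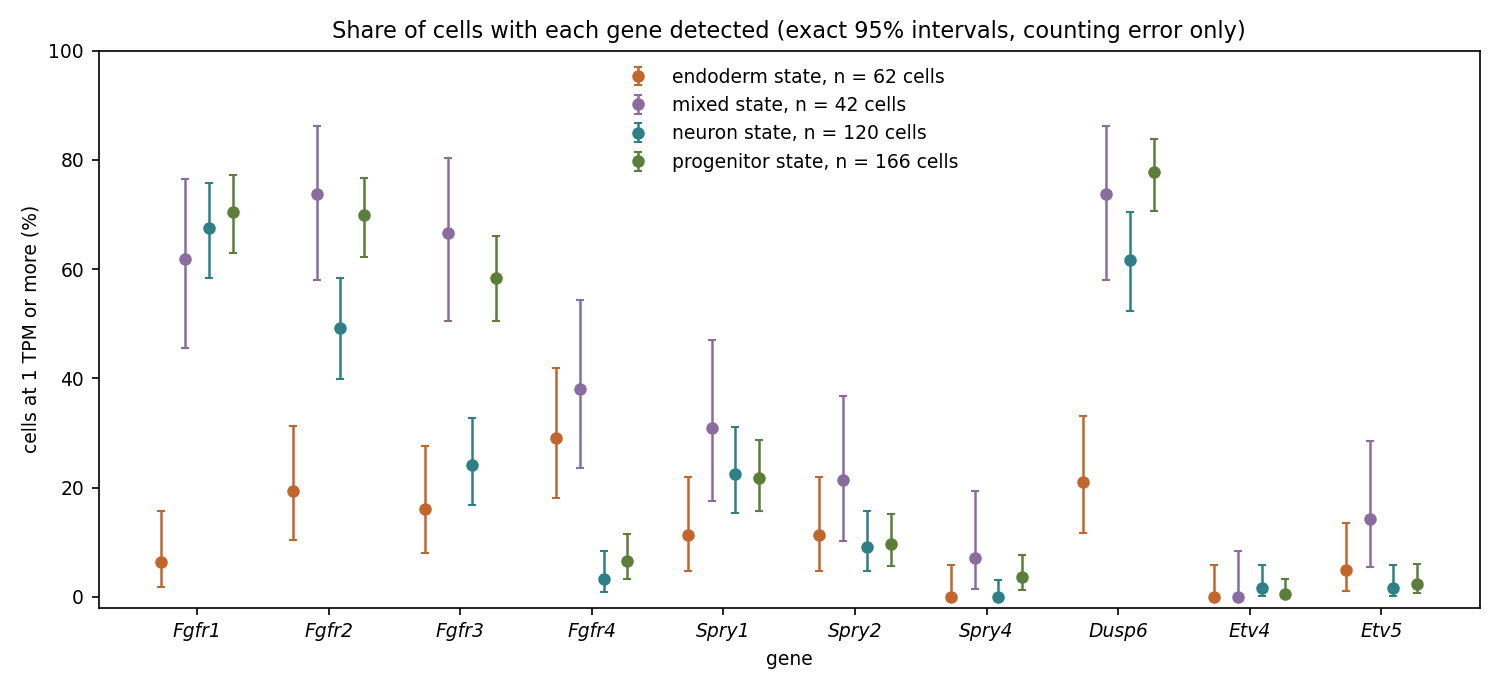
Points give the percent of cells at 1 TPM or more (y axis) for each gene (x axis) in the 4 marker states, with exact 95% intervals that cover counting error only. Endoderm-state points lie below the progenitor-state points for Fgfr1, Fgfr2, Fgfr3 and Dusp6 with no overlap of intervals, and above that of the progenitor state for Fgfr4.

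In neuron-state cells Fgfr3 and Dusp6 were called lower than in progenitor-state cells, and Fgfr1 was not called. Of the 10 genes 0 were called higher and 2 lower, while 7.52% of 12596 genes were called higher and 1.73% lower. Fgfr3 was detected in 29 of 120 neuron-state cells (24.2%, 16.8 to 32.8) and 58.4% of progenitor-state cells (50.5 to 66.02). Its means were 3.53 and 11.7 TPM, 3.32-fold lower in the neuron state, its medians 0 and 4.18 TPM, and its ranges 0 to 35.2 and 0 to 114.6 TPM. The share was 25.4% and 26.1% in the neuron state within column sets 1 and 2, against 61.3% and 54.3% in the progenitor state, and Fgfr3 was called lower under all 14 alternatives. Fgfr1 was detected in 67.5% of neuron-state cells (58.3 to 75.8) and 70.5% of progenitor-state cells (62.9 to 77.3), at means of 8.59 and 12.1 TPM. Fgfr2 was detected in 49.2% (39.9 to 58.4) and 69.9% (62.3 to 76.7), with intervals apart, but its means of 13.5 and 21.03 TPM differed by less than 2-fold.

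Dusp6 was detected in 61.7% of neuron-state cells (52.4 to 70.4) and 77.7% of progenitor-state cells (70.6 to 83.8), with means of 29.7 and 62.6 TPM and medians of 7.25 and 43.3 TPM. Its 2.11-fold lower mean stood close to the limit of the rule. It was not called when the repeat columns were kept (log2 fold -0.96), within column set 1 (-0.84) or set 2 (-1.07), with a looser state rule (-0.79), or among cells with 5000 to 8000 genes (-1.22). Within set 2 and among cells with 5000 to 8000 genes the fold met the limit, but the intervals of the detected shares overlapped. Spry1 was detected in 22.5% of neuron-state and 21.7% of progenitor-state cells and Spry2 in 9.17% and 9.64%. Fgfr4 was detected in 4 of 120 neuron-state and 11 progenitor-state cells, Etv5 in 2 and 4, Etv4 in 2 and 1, and Spry4 in 0 and 6.

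The neuron state was not uniform in these genes. In a split chosen after the values were seen, the 34 neuron-state cells with fewer than 5 progenitor markers had Fgfr1 in 38.2% (22.2 to 56.4), Fgfr2 in 17.6% (6.76 to 34.5), Fgfr3 in 2.94% (0.0744 to 15.3) and Dusp6 in 17.6% (6.76 to 34.5). The 86 that kept 5 or more progenitor markers had them in 79.1% (68.95 to 87.1), 61.6% (50.5 to 71.9), 32.6% (22.8 to 43.5) and 79.1% (68.95 to 87.1). Fgfr1 and Dusp6 were thus detected as often in the cells with markers of both kinds as in the progenitor state. Fgfr3 was less frequent in those 86 cells, at 32.6% against 58.4%. The level of Dusp6 was lower there although its share was not. Dusp6 averaged 38.9 TPM in the 86 cells and 62.6 TPM among progenitor-state cells, and its medians were 21.6 and 43.3 TPM. Fgfr1 averaged 10.6 and 12.1 TPM, and its medians were 6.435 and 5.94 TPM. The median gene number was 5648.5 in the 34 cells and 7502.5 in the 86, against 6658.5 in the progenitor state, and its part in these shares was not tested. With only the 34 cells as neuron state, 4 of the 10 genes were called lower, Fgfr1, Fgfr2, Fgfr3 and Dusp6, while the share of all genes called lower was 9.35%, against 1.73% with all neuron-state cells.

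Along the number of neuron markers, again a grouping made after the values were seen, Fgfr3 was less frequent in the cells with 7 or more markers than in those with 6 or fewer. Among cells with fewer than 5 endoderm markers, Fgfr3 was detected in 57.3% (45.4 to 68.7) of 75 cells with 0 to 3 neuron markers, 51.9% (41.9 to 61.8) of the cells with 4 to 6, 20% (8.44 to 36.9) of 35 cells with 7 to 8, and 25.9% (16.99 to 36.5) of 85 cells with 9 to 10. By detected share, Fgfr1 stayed between 61.3% and 72.1% in these groups and Dusp6 between 60% and 77.9%. The level of Dusp6 was lower in both groups with 7 or more neuron markers. From the fewest to the most neuron markers, Dusp6 averaged 61.4, 57.5, 35.1 and 27.4 TPM. Its medians were 27.8, 48.2, 3.14 and 8.34 TPM. Fgfr2 was at 58.7%, 72.1%, 60% and 44.7%, where the interval of the last group (33.9 to 55.9) lay below that of the group with 4 to 6 markers (62.5 to 80.5).

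**Figure D5:**
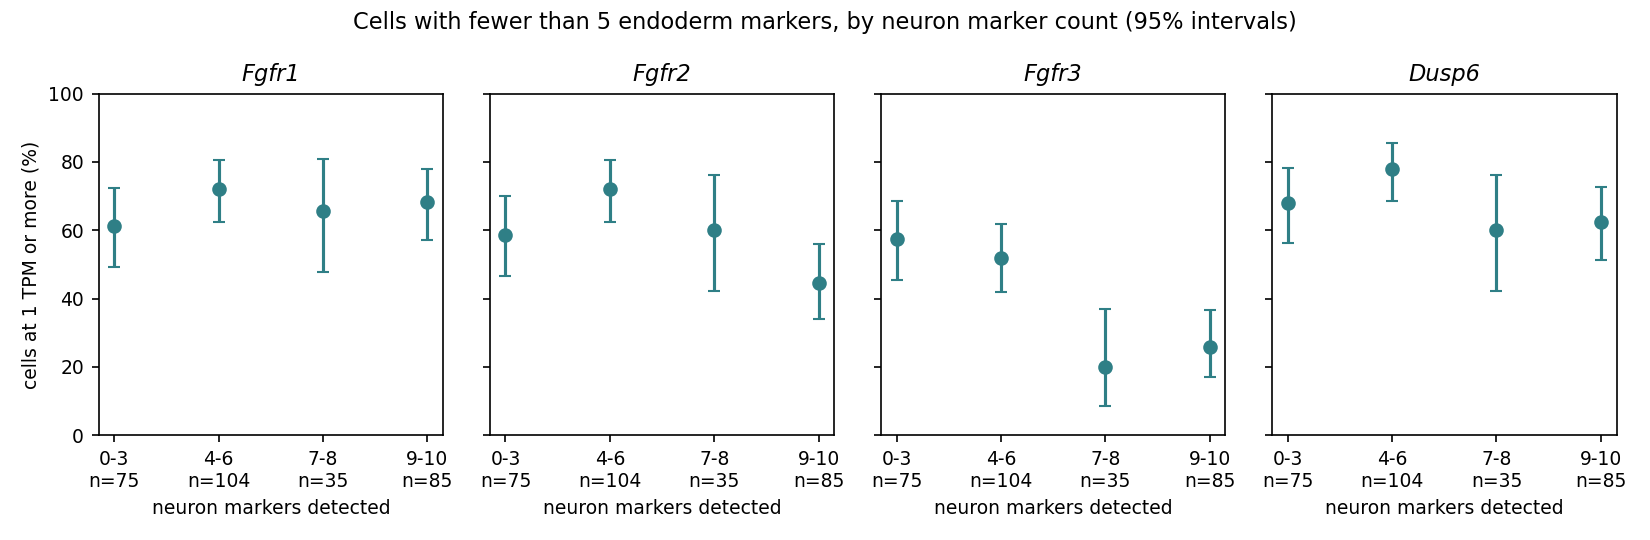
The percent of cells at 1 TPM or more (y axis, exact 95% intervals) for Fgfr1, Fgfr2, Fgfr3 and Dusp6 is plotted by the number of neuron markers detected (x axis) in cells with fewer than 5 endoderm markers. Fgfr3 lies at 57.3% and 51.9% in the first 2 groups and at 20% and 25.9% in the others, while Fgfr1 keeps to 61.3% to 72.1%.

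As a group, mixed-state cells had Fgfr4 as well as Fgfr1, Fgfr2 and Fgfr3, with Fgfr4 in a minority of the cells. They also had the highest median gene number of the states (8071.5) and may be 2 cells in 1 capture site, as given above. Fgfr4 was the 1 gene of the 10 called higher against progenitor-state cells and 0 were called lower, where 9.95% of 12239 genes were called higher and 0.0409% lower. It was detected in 16 of 42 mixed-state cells (38.1%, 23.6 to 54.4) and 11 progenitor-state cells (6.63%, 3.35 to 11.5), with means of 3.21 and 0.825 TPM, a 3.89-fold difference. It was not called with the difference of mean log2 values, at 0.91, or by the 4000 highest genes. Fgfr1, Fgfr2 and Fgfr3 were detected in 61.9%, 73.8% and 66.7% of mixed-state cells, and Dusp6 in 73.8% (57.96 to 86.1), all with intervals that overlap those of the progenitor state. The Fgfr1 mean was 4.22 TPM in the mixed state and 12.1 TPM in the progenitor state, and the gene was called lower with detection at 5 TPM or among the 4000 highest genes of a cell. Of the 16 mixed-state cells with Fgfr4, 10 also had Fgfr1, and the mixed state held 5 of the 12 cells in which all 4 receptors were detected. Etv5 was detected in 6 of 42 mixed-state cells (14.3%, 5.43 to 28.5) and 4 progenitor-state cells (2.41%, 0.660 to 6.05), and was called higher when the repeat columns were kept or any value above 0 counted.

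Other genes of the pathway were read from lists that had been written down with earlier results of these data known. Of 18 secreted ligand genes, 6 were detected in enough cells to be called between the endoderm and progenitor states. Fgf2 and Fgf10 were called higher and Fgf15 lower in the endoderm state, where 12.3% of all genes were called higher and 15.4% lower. Fgf2 was detected in 12 of 62 endoderm-state, 11 of 42 mixed-state, 0 of 120 neuron-state cells and no progenitor-state cell, where the interval reaches 2.20%. Fgf10 was detected in 10 of 62 endoderm-state and 4 progenitor-state cells, at means of 2.98 and 0.130 TPM. Fgf15, the mouse ortholog of human FGF19 and a gene of the embryonic neural tube, was detected in 0 of 62 endoderm-state, 4 of 42 mixed-state, 16 of 120 neuron-state and 20 progenitor-state cells, with a highest value of 926.3 TPM in the progenitor state. Fgf18 was called higher in the neuron state, in 33 of 120 cells against 5 progenitor-state cells (3.01%), where 7.52% of all genes were called higher. In the mixed state 3 ligands were called higher, Fgf2, Fgf10 in 7 of 42 cells against 4 progenitor-state cells (2.41%), and Fgf3 in 9 of 42 against 3 (1.81%). There 6 ligands could be called, and 9.95% of all genes were called higher. Fgf8 was detected in 1 cell and Fgf4 in 3 cells of all states; both were named after their values were seen.

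Of 24 genes for co-receptors and heparan sulfate proteins, 21 could be called, and of these 7 were called higher and 6 lower in the endoderm state, where 12.3% of all genes were called higher and 15.4% lower. Klb, which encodes beta-Klotho, the partner through which FGFR4 receives FGF15, was detected in 25 of 62 endoderm-state cells and 1 progenitor-state cell, at means of 6.30 and 0.0219 TPM. In the mixed state it was in 23 of 42 cells and in the neuron state in 1 of 120. Of the 18 endoderm-state cells with Fgfr4, 7 also had Klb, as did 8 of the 16 mixed-state cells and 0 of the 11 progenitor-state cells with Fgfr4. The heparan sulfate proteoglycan Sdc4 was at 57.2 and 4.70 TPM in the endoderm and progenitor states, Flrt3, a membrane protein known to bind FGF receptors, at 111.9 and 10.5 TPM, and the glypican Gpc4 at 3 and 0.428 TPM. Fgfbp3, which encodes a secreted FGF binding protein, was at 0.777 and 56.2 TPM, Gpc2 at 0.0887 and 1.46 TPM, Sdc1 at 1.32 and 8.70 TPM, and Gpc1 at 1.02 and 4.14 TPM. Proteoglycans were called in both directions, Sdc4 and Gpc4 higher and Sdc1, Sdc2, Gpc1 and Gpc2 lower. Fgfrl1 was the remaining gene called lower, in 14.5% of endoderm-state and 45.8% of progenitor-state cells, at 4.03 and 10.2 TPM. In the neuron state 1 gene of this list was called higher, Gpc2, and 2 lower, Fgfbp3 at 19.1 against 56.2 TPM and Sdc2 at 2.74 against 6.37 TPM. Of all genes, 7.52% were called higher and 1.73% lower there.

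Among 11 other feedback genes in the table, Dusp9 was called higher in the endoderm state and Spred1 and Dusp4 lower, where 12.3% of all genes were called higher and 15.4% lower. Dusp9, like Dusp6 a gene for a phosphatase of ERK, was detected in 54 of 62 endoderm-state cells and 10 progenitor-state cells, at means of 12.3 and 0.396 TPM. Dusp9 and Dusp6 thus had opposite directions between these states. Spred1, which encodes an inhibitor related to Sprouty, was at 0.438 and 4.47 TPM in the endoderm and progenitor states, and Dusp4 at 0.576 and 3.92 TPM. In the neuron state Dusp4 was called higher, at 8.97 against 3.92 TPM, and Dusp5 lower, at 4.96 against 10.01 TPM, where 7.52% of all genes were called higher and 1.73% lower. Of 12 other ERK-responsive transcription and growth genes, Ier3 was called higher (65.1 and 8.38 TPM) and Etv1 (0.0824 and 2.79 TPM) and Ccnd1 (2.98 and 40.9 TPM) lower in the endoderm state, and Phlda1 was called higher in the neuron state, at 24.4 against 8.60 TPM. Of these 12 genes, 11 could be called in each comparison, and the shares of all genes called are those just given. Etv1, a gene for an ETS factor like Etv4 and Etv5, was detected in 50 cells, more than Etv4 and Etv5 together.

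Of 20 signal transduction genes, which include adaptors such as Frs2 and Gab1, 2 were called higher and 0 lower in the endoderm state, so the higher calls were near the 12.3% of all genes. The adaptor Gab1 was at 19.7 and 3.89 TPM and the kinase gene Rps6ka1 at 34.3 and 6.52 TPM in the endoderm and progenitor states. Frs3 was called higher in the neuron state, at 5.94 against 1.53 TPM, where 7.52% of all genes were called higher. In the mixed state, Frs2, Shc1, Gab1 and Rps6ka1 were called higher, where 9.95% of all genes were called higher. The median log2 fold of the genes tested was 0.13 for this list and -0.23 for all genes tested between the endoderm and progenitor states. For the other lists it was 2.14 (ligands, 6 genes tested), -0.0007 (co-receptors and heparan sulfate proteins), -0.97 (other feedback) and 0.48 (other ERK-responsive genes). For the 7 tested of the 10 genes it was -2.39.

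Within the neuron state Dusp6 was detected in 45.6% (33.5 to 58.1) of 68 neuron-state cells with 0 or 1 receptor, 79.3% (60.3 to 92.01) of 29 with 2, and 86.96% (66.4 to 97.2) of 23 with 3 or 4, and the first interval lay below the others. The median gene number moved the same way, at 6326, 7180 and 8016. Fgfr1, Fgfr2, Fgfr3 and Dusp6 were also less frequent in the neuron-state cells with fewer than 5 progenitor markers, as given above (Dusp6 in 17.6% against 79.1%), and the part of gene number and of progenitor markers in these shares was not tested. Among progenitor-state cells, Dusp6 was detected in 65.96% (50.7 to 79.1) of 47 cells with 0 or 1 receptor, 84.2% (72.1 to 92.5) of 57 cells with 2, and 80.6% (68.6 to 89.6) of 62 cells with 3 or 4, with overlapping intervals and with median gene numbers of 5656, 6287 and 7253.5. Across the progenitor-state cells, Pearson's r of log2(TPM + 1) between Dusp6 and Fgfr1, Fgfr2 and Fgfr3 was 0.10, 0.10 and 0.03, which in sparse values is no relation to report, while r between Dusp6 and the number of genes above 0 was 0.25. Across all distinct cells the genes most like Dusp6 among 11129 candidates were Fam181a (r = 0.51), Pclaf (0.50), a factor of DNA replication, and H2afz (0.50), a histone variant gene. Those most like Fgfr3 were Fam181a (0.48), Nrarp (0.42) and Hes5 (0.40), of which the last pair are Notch targets. Those most like Fgfr2 were Tmem47 (0.45), Nrarp (0.45) and Rfx4 (0.44), and those most like Fgfr1 were Igdcc3 (0.44), Pax6 (0.44) and 2610318N02Rik (0.42). Pax6, Rfx4 and Hes5 are among the markers that defined the progenitor state, and all these values share the cells' differences in state and gene number. For Spry1 the highest r was 0.24, below the bound of 0.4 set for naming a gene.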

How the data were processed

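Single-cell RNA expression was analysed in 1 group of 464 samples, each labelled as 1 cell. Per the submitters' processing notes, the tools were STAR and RSEM and the build mm10, with no role stated; the sources used here give no version, annotation or filter. The values the authors deposited carry no unit and were taken as TPM, transcripts scaled to a fixed total per cell, because RSEM reports TPM and a cell's values sum to 54.2% to 95.1% of the total that TPM would have. The table's header runs into the first gene's row and was split there. All columns could be used, but none could be tied to a single sample of the labels.

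The filter removed 6 columns: 2 had under 2000 genes above 0, 5 had over 20% of TPM from mitochondrial genes, and 1 of these had both. Columns with a correlation of at least 0.93 were taken as repeats, and the set 1 column was kept; 52 of the 55 pairs fell in the same state. Column sets 1 and 2 held 224 and 234 kept columns, which gave 403 distinct cells, 166 of them in the progenitor state. Values within a set use all its kept columns. Doublets were not called, because callers need counts. The calling rule was run on all genes, with 0.01 TPM added to both means. Of the other pathway genes, 85 of 86 listed are in the table, and at most 4 called genes in each direction, list and comparison are named, by size of fold. An exception is the co-receptor list, where all 6 genes called lower in the endoderm state are named. For the mixed state, calls in the co-receptor, other feedback and other ERK-responsive lists are given here as counts only. Called higher were 5 of 20, 1 of 11 and 1 of 11 genes that could be called, and 0 were called lower. Of all genes, 9.95% were called higher and 0.0409% lower there. The genes most like a member are the 3 with the highest Pearson r of log2(TPM + 1), among genes detected in at least 10% of cells, for members detected in at least 20%, where r reached 0.4. Intervals are exact Clopper-Pearson 95% intervals. The members, lists and rules were chosen with earlier results of these data known. The limit of 5000 to 8000 genes, the groupings of neuron-state cells, the means without the highest cell and the counts of cells with 2 genes together were chosen after seeing the data. Positions are from RefSeq, GRCm38.p6. Python 3.11.15, numpy 2.4.6 and scipy 1.17.1 were used.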

Additional observations from a re-analysis of the deposited data

How the results depend on the processing

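No paired analysis was possible because all cells belong to 1 group. Of the count of 10 genes detected in at least 10% of cells, 7 in the values reported, the one alternative that moved it by over 1.5 times was detection among the 4000 highest genes of a cell, which left 4, by a stricter construction. For the endoderm state against the progenitor state, 5 genes were called and the alternatives gave 4 to 6. For the neuron state against the progenitor state, 2 genes were called; 1 was called with repeat columns kept, in column set 1, in column set 2, with a state rule 1 marker looser, and in cells with 5000 to 8000 genes, in each case Fgfr3 without Dusp6, and 4 were called with only the neuron-state cells that had fewer than 5 progenitor markers, where 9.35% of all genes were called lower, against 1.73% as reported. For the mixed state against the progenitor state, 1 gene was called; 2 were called with repeat columns kept, with detection at 5 TPM and with any value above 0, and 0 with the difference of mean log2 values. With detection among the 4000 highest genes the count there was again 1, but the gene was Fgfr1, lower, in place of Fgfr4. The cause of these changes was not tested. The last 2 restrictions of cells, by gene number and by progenitor markers, were chosen after seeing the data. No log2 fold of a called gene changed sign under any alternative computed. Rescaling each cell by 1847 broadly detected genes, which left out 2 cells whose median over them was 0, moved the median log2 fold of all genes between the endoderm and progenitor states to 0.01, against -0.23 as reported, and changed no call of a member. Over the 10 genes, 18 detected shares left their interval under an alternative, all when detection was defined otherwise. Depth is unknown, so genes detected in few cells, such as Etv4, Etv5 and Spry4, may be present below detection, and an exact 0 is no proof of absence.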
